A study of Mus musculus with 6 samples.

Results

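Interferon-induced genes were followed in small intestinal crypts of CSN8ΔIEC and CSN8fl/fl mice. The list named 37 genes, matched by gene symbol in the platform annotation and chosen with earlier results of these data known. Of them, 34 were measured among the 19505 genes with a signal. Gbp6, Nlrc5 and Ifi44 were not analysed here. By role the list held 4 immunity-related GTPases (IRG), 5 guanylate-binding proteins (GBP), 8 genes of antigen processing, 4 transcription factors, 15 antiviral effectors and 1 chemokine.

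Total RNA was measured on 6 Affymetrix arrays, 1 per sample, from 3 CSN8ΔIEC and 3 CSN8fl/fl samples of C57bl/6 background. The crypts had been freed with EDTA from intestines scraped clean of villi, per the series text, to ask about antimicrobial peptide production. Both genotypes carry the floxed allele of Cops8, which encodes CSN8, a subunit of the COP9 signalosome. CSN8ΔIEC was read as its deletion in intestinal epithelial cells, and no source used here names the Cre driver. In both genotypes the labels give replicates 1 and 2 an age of 16 weeks and female sex, and replicate 3 an age of 10 weeks and male sex. Each title names its sample as a biological replicate; whether that means a single mouse or pooled mice is not stated there. The p-values measure only how these samples varied.

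Some facts of the whole series bear on these genes. The log2 signal of Cops8 was 7.69 ± 0.08 (SD, n = 3 each) in CSN8ΔIEC and 8.19 ± 0.08 in CSN8fl/fl crypts, a difference of −0.50 ± 0.11 (SE; adjusted p = 0.0865 in limma with Benjamini-Hochberg adjustment over all genes, or 0.0464 with dim genes left out, those with a mean signal below 6.08). Whether its probes lie in the deleted part is not known, so it does not settle the genotype. The Y-linked genes went against the labelled sex in every library: Eif2s3y lay between 9.61 and 10.10 in the 4 libraries labelled female and at 2.81 and 4.06 in those labelled male. Both genotypes have the same mixture, so the genotype comparison does not rest on these labels, and the split is called replicates 1 and 2 against replicate 3. CSN8fl/fl replicate 3 was the least alike of the 6 libraries (r = 0.976 to 0.986 across genes against each of the other 5; the lowest r among those 5 was 0.986). Epithelial markers were bright and alike, since the 8 markers summed to between 98.1 and 99.0 in CSN8ΔIEC and between 98.3 and 98.9 in CSN8fl/fl libraries on the log2 scale. Of the 7 crypt markers measured, 4 had a difference above 0 and 3 below. The stem cell marker Lgr5 was at 8.28 to 8.47 in CSN8ΔIEC and at 8.05 to 8.63 in CSN8fl/fl. Ascl2, another crypt marker, lay higher in CSN8ΔIEC without overlap (0.73 ± 0.17, adjusted p = 0.0983). Lyz1 and Slc12a2 differed by −0.51 and 0.41, both with overlap (adjusted p = 0.324 and 0.398). Mmp7, a Paneth cell protease, fell (−0.99 ± 0.16, adjusted p = 0.0294). The proliferation marker Mki67 was at 11.89 to 11.92 in CSN8ΔIEC and at 10.81 to 11.63 in CSN8fl/fl, lowest in CSN8fl/fl replicate 3.

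Interferons are cytokines that warn cells of infection. Type I and type III interferons act through a factor complex that includes STAT2 and IRF9 and binds a DNA element called ISRE, while interferon-γ acts mainly through an element called GAS, and through IRF1, which it induces. Many induced genes answer to both routes, but the GTPases, the immunoproteasome and the peptide transporter are textbook targets of interferon-γ, and Isg15, the Ifit genes, Usp18 and Rsad2 of type I and type III interferons. In the gut, epithelial cells answer to both, with interferon-γ coming largely from lymphocytes.

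The 34 genes split by role. GTPases and part of the antigen processing genes had higher signals in CSN8ΔIEC crypts, and most factors and antiviral effectors had lower ones, so that the median difference over the 34 was 0.02, beside −0.01 over all genes tested. Among all 19505 genes, 9396 differences lay above 0 and 10109 below. None of the 34 passed an adjusted p of 0.05 in limma: 0 rose, against 0.374% of all genes, and 0 fell, against 0.702% (1.08% in either direction). At an unadjusted p under 0.05, 11 of the 34 were higher in CSN8ΔIEC (32.4%, against 6.95% of all genes) and 2 were lower (5.88%, against 8.01%). In 10 members all 3 CSN8ΔIEC values lay above all 3 CSN8fl/fl values, or 29.4% against 10.7% of all genes, and in 4 they lay below, or 11.8% against 11.7% of all genes (22.4% in either direction). The lower count is near the background and the higher count is above it. The members were chosen with earlier results of these data known, so these shares describe the list and test nothing. The 11 higher members were 7 without CSN8ΔIEC replicate 3, and the count of lower ones, 2 in all, became 0 when CSN8ΔIEC replicate 1 was left out, 4 when CSN8ΔIEC replicate 2 was, and 5 when CSN8fl/fl replicate 1 was.

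**Figure D1:**
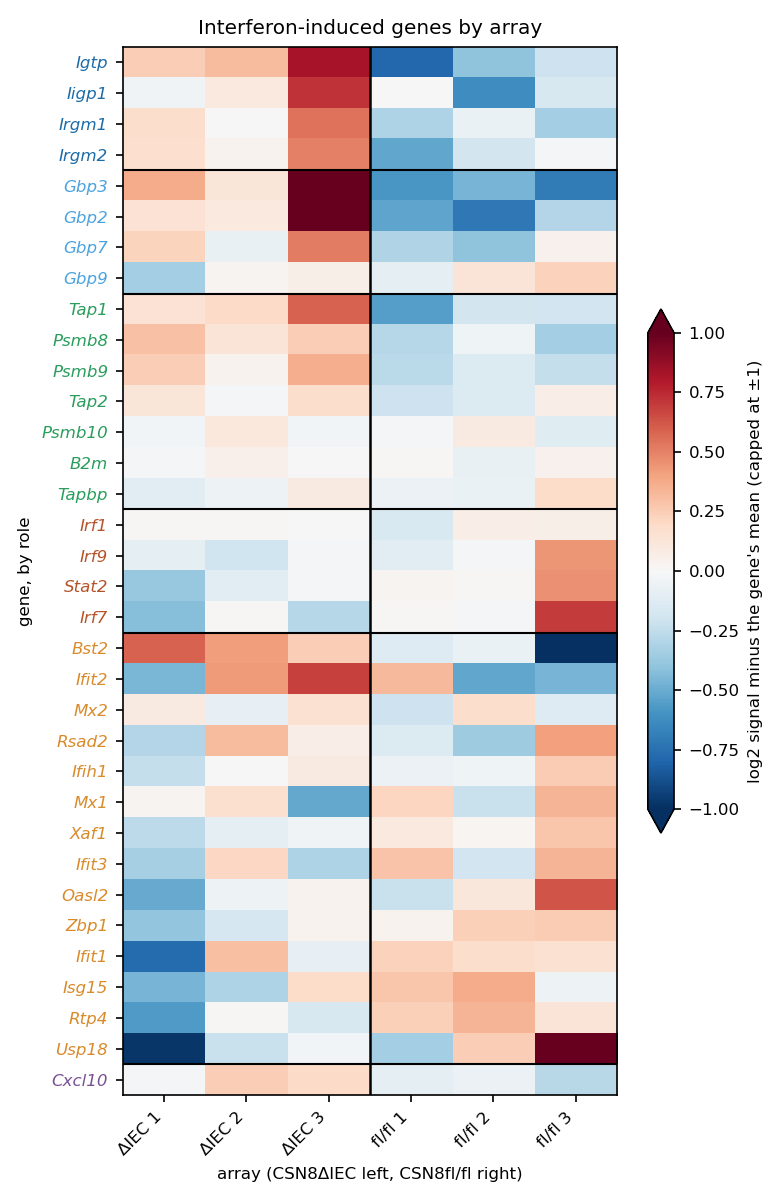
Each row is a measured interferon-induced gene, grouped by role and sorted by difference, and each column an array; colour is the log2 signal minus the gene's mean over the 6 arrays. The rows of Igtp, Irgm2, Gbp2 and Gbp3 are red in all 3 CSN8ΔIEC arrays, 7 of the 8 GTPase rows peak in CSN8ΔIEC replicate 3, and many effector rows are blue in CSN8ΔIEC replicate 1 and red in CSN8fl/fl replicate 3.

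**Figure D2:**
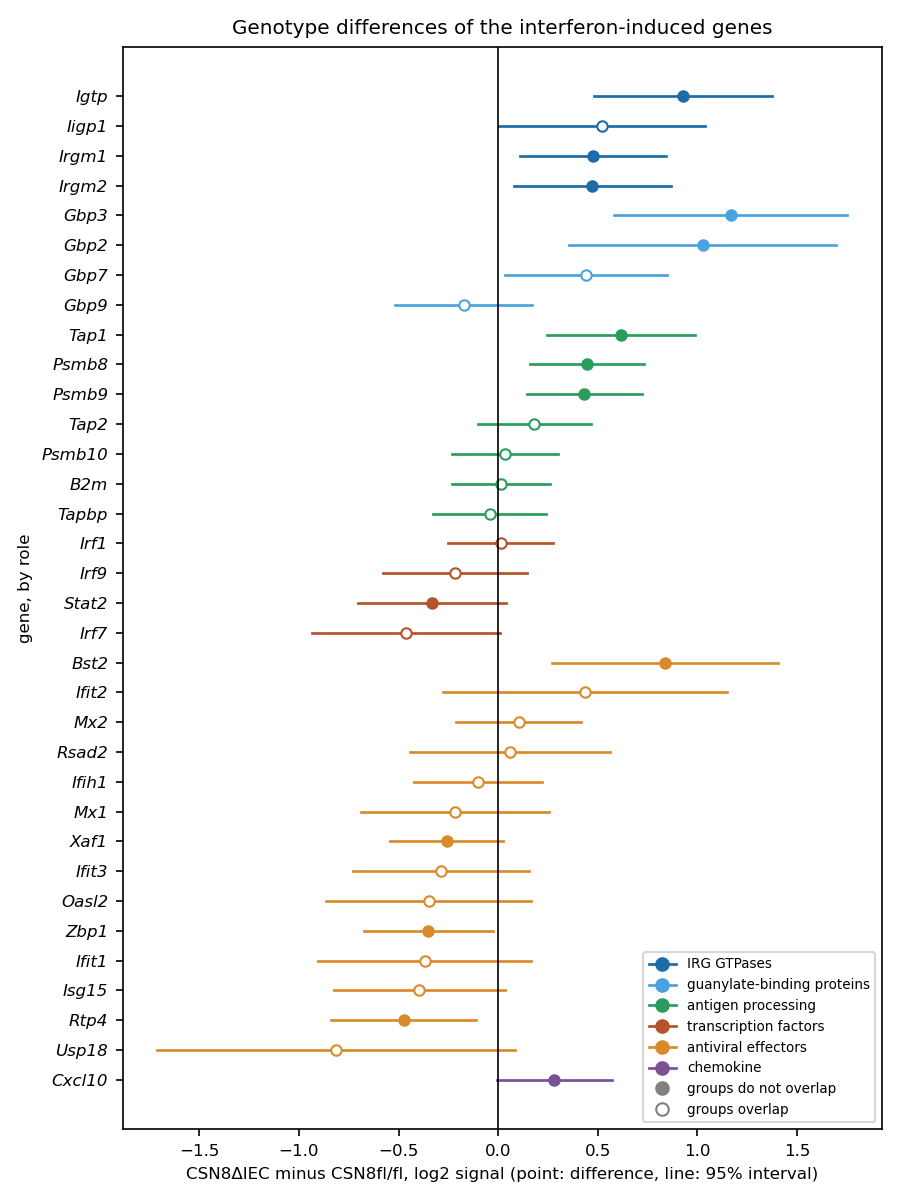
Points are log2 differences, CSN8ΔIEC minus CSN8fl/fl, and lines their 95% intervals from the limma fit; filled points mark genes whose groups do not overlap. The intervals of 7 of the 8 GTPases lie above 0, and 13 of the 18 factors and effectors have points below 0.

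The IRG GTPases are a family of interferon-γ-induced enzymes whose effector members attack vacuoles holding intracellular microbes. All 4 listed IRG GTPases were higher in CSN8ΔIEC crypts at an unadjusted p under 0.05 (100%, against 6.95% of all genes). Their differences ran from 0.47 to 0.93, with a median of 0.50. The signal of Igtp was 8.64, 8.71 and 9.22 in CSN8ΔIEC and 7.61, 7.99 and 8.19 in CSN8fl/fl replicates 1 to 3. The groups did not overlap, and the difference of 0.93 ± 0.20 was 1.90-fold (adjusted p = 0.0715). It passed with a trend and robust prior (adjusted p = 0.0449), with array weights (0.0479) and with labelled sex and age as a term (0.0228), and over all its alternatives the adjusted p ranged from 0.0228 to 0.221. Irgm1, a regulator that holds the other IRG proteins inactive on the cell's own membranes, was at 10.17, 9.99 and 10.53 in CSN8ΔIEC and at 9.69, 9.93 and 9.65 in CSN8fl/fl (difference 0.47 ± 0.16, adjusted p = 0.22). Only CSN8fl/fl replicate 2 came close to the CSN8ΔIEC range. Irgm2, of the same regulator class, was at 9.44, 9.31 and 9.78 in CSN8ΔIEC and at 8.76, 9.09 and 9.26 in CSN8fl/fl (0.47 ± 0.17, adjusted p = 0.254). These groups did not overlap, by a margin smaller than the spread within either. Iigp1, an effector GTPase, was at 6.08, 6.21 and 6.84 in CSN8ΔIEC and at 6.12, 5.49 and 5.95 in CSN8fl/fl, and the groups overlapped through CSN8fl/fl replicate 1 (0.52 ± 0.23, adjusted p = 0.329). Its difference was 0.29 without CSN8ΔIEC replicate 3 and 0.34 without CSN8fl/fl replicate 2, and the IRG median was 0.33 without CSN8ΔIEC replicate 3.

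The GBP are larger interferon-induced GTPases that coat bacteria and break open their vacuoles. The 2 with the largest differences of any member were Gbp3 and Gbp2. Gbp3 was at 7.12, 6.87 and 8.01 in CSN8ΔIEC and at 6.17, 6.29 and 6.05 in CSN8fl/fl, a 2.25-fold difference (1.17 ± 0.26, adjusted p = 0.0823). Gbp2, a GBP that acts on bacteria and parasites, was at 7.41, 7.35 and 8.56 in CSN8ΔIEC and at 6.73, 6.54 and 6.97 in CSN8fl/fl (1.03 ± 0.30, adjusted p = 0.157). In both genes CSN8ΔIEC replicate 3 was far above the other libraries. Without it the differences were 0.83 and 0.63 (adjusted p = 0.0818 and 0.226), and Gbp2 passed with labelled sex and age as a term (adjusted p = 0.0487; range over the alternatives 0.0487 to 0.281). Gbp7 was at 8.60, 8.30 and 8.89 in CSN8ΔIEC and at 8.07, 7.97 and 8.42 in CSN8fl/fl (0.44 ± 0.18, adjusted p = 0.298), with an overlap through CSN8fl/fl replicate 3. Gbp9 had a dim signal, 4.67 to 5.07 in CSN8ΔIEC and 4.91 to 5.24 in CSN8fl/fl, and was the only one of these 8 listed GTPases with a difference below 0 (−0.17 ± 0.15, adjusted p = 0.629). Of the 8 listed GTPases 7 were higher at an unadjusted p under 0.05 (87.5%, against 6.95% of all genes) and 5 lay higher without overlap (62.5%, against 10.7%). The relatives Gbp4, Gbp8 and Tgtp2, which the list did not name, differed by 0.12, −0.04 and 0.57 (adjusted p = 0.821, 0.93 and 0.278), all with overlap. With them the counts were 8 of 11 at an unadjusted p under 0.05 and 5 of 11 without overlap. CSN8ΔIEC replicate 3 was the highest of the 6 libraries in 7 of the 8 (87.5%), where it was highest in 16.1% of all genes. The genes of a GTPase family resemble each other in sequence, and whether probes read more than 1 of them was not tested.

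Promoter windows from RefSeq (250 bases before to 50 after the gene start, GRCm38.p6) were matched by symbol for 27 of the 37 genes. They were searched on both strands for the ISRE core, which is GAAA, any 2 bases and GAAA again (TTTC, any 2 bases and TTTC on the other strand), and for the GAS letters TTCNNNGAA, which read the same on both strands. Overlapping matches were counted separately. The ISRE core was in 15 of the 27 (55.6%), against 3.94% of genes on the array with a window, and the GAS letters in 7 of the 27 (25.9%), against 9.02%. All 6 GTPases with a window held the ISRE core, in 8 places whose first bases lie 24 to 64 bases before the start. The last 110 bases before the start are given for these 6, which include the members with the 3 largest differences, with ISRE and GAS letters in capitals.
Igtp, chr11:58199446-58199555, plus strand: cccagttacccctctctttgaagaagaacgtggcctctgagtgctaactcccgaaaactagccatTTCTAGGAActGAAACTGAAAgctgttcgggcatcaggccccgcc
Irgm2, chr11:58214867-58214976, plus strand: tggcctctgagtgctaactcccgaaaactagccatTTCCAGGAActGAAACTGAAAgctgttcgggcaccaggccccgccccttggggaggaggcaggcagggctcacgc
Irgm1, chr11:48871421-48871530, minus strand: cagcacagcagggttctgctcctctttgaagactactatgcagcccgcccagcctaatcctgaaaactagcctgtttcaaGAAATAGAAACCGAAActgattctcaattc
Gbp3, chr3:142559934-142560043, plus strand: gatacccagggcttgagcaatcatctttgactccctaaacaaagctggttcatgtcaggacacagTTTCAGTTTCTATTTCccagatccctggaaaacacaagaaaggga
Gbp2, chr3:142620553-142620662, plus strand: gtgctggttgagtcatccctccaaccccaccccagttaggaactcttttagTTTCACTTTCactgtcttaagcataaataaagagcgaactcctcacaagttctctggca
Gbp7, chr3:142530226-142530335, plus strand: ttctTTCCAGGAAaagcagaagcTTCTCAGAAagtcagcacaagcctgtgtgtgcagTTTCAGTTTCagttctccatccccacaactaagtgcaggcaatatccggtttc
In Irgm1 and Gbp3 the run of capitals is 2 overlapping copies of the ISRE core. Igtp and Irgm2 carry the same ISRE letters, GAAACTGAAA, with a GAS match just before them. A match describes these letters only and says nothing of whether a factor bound there in these crypts.

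**Figure D3:**
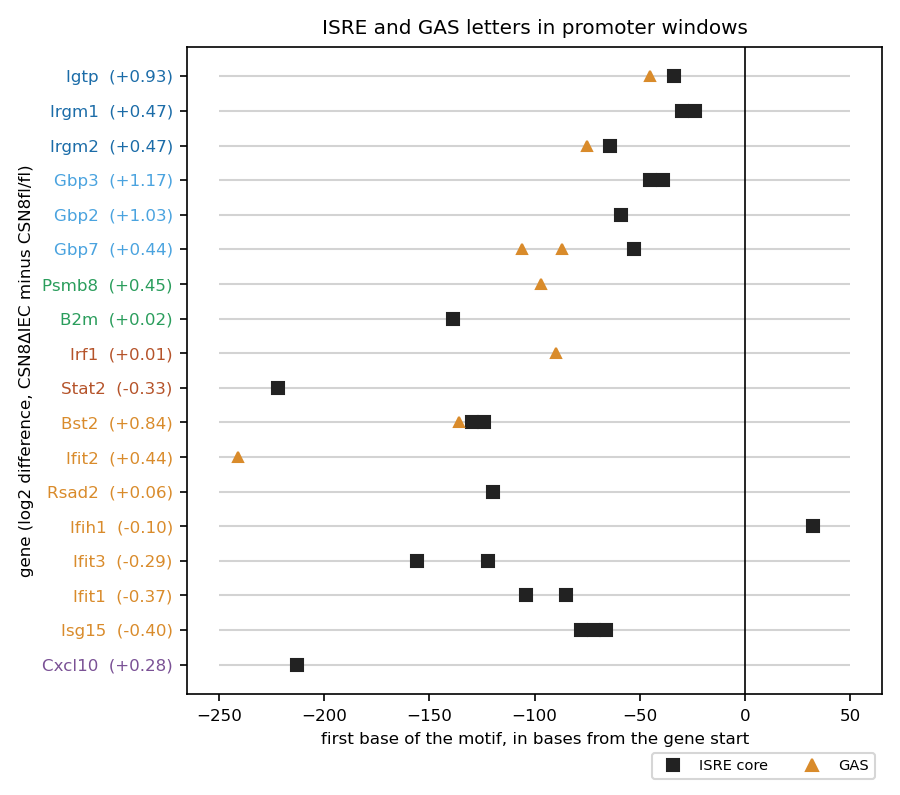
Squares (ISRE core) and triangles (GAS letters) mark the first base of each match, in bases from the gene start (negative: before it), in the promoter windows of the measured members that hold a match; the difference of each gene stands beside its name. The ISRE squares of the 6 GTPases lie within 64 bases of the start, while those of other members are spread from 222 bases before to 32 after it.

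Antigen processing genes showed a divided picture. Psmb8, Psmb9 and Psmb10 encode the catalytic subunits that turn the constitutive proteasome into the immunoproteasome. Psmb8 was at 10.89, 10.73 and 10.84 in CSN8ΔIEC and at 10.32, 10.56 and 10.26 in CSN8fl/fl, a 1.36-fold difference without overlap (0.45 ± 0.13, adjusted p = 0.152). Psmb9 was at 10.17, 9.96 and 10.29 in CSN8ΔIEC and at 9.65, 9.79 and 9.69 in CSN8fl/fl (0.43 ± 0.13, adjusted p = 0.162), also without overlap. Psmb10 was at 10.81, 10.94 and 10.81 in CSN8ΔIEC and at 10.82, 10.92 and 10.72 in CSN8fl/fl, and its difference of 0.03 had a 95% interval from −0.23 to 0.30. That interval stops short of the differences of Psmb8 and Psmb9, but the contrast between the subunits was not tested. Tap1, a subunit of the transporter that carries peptides into the endoplasmic reticulum, was at 10.11, 10.16 and 10.55 in CSN8ΔIEC and at 9.41, 9.78 and 9.78 in CSN8fl/fl (0.62 ± 0.16, 1.53-fold, adjusted p = 0.129). It had the largest difference among the antigen processing genes, and its groups did not overlap. Its partner Tap2 ran from 8.29 to 8.49 in CSN8ΔIEC and from 8.11 to 8.38 in CSN8fl/fl (0.18 ± 0.13, adjusted p = 0.533). Tapbp, which holds class I molecules to the transporter, ran from 10.72 to 10.92 in CSN8ΔIEC and from 10.77 to 11.01 in CSN8fl/fl (−0.04 ± 0.13, adjusted p = 0.899). B2m, the light chain of class I molecules, was at 13.78, 13.85 and 13.80 in CSN8ΔIEC and at 13.82, 13.73 and 13.85 in CSN8fl/fl (0.02 ± 0.11, adjusted p = 0.96). Its signal sits near the top of the scale, where the highest value in any library was 14.1 and arrays respond less. The median over the 7 was 0.18, and 3 of them were higher at an unadjusted p under 0.05 (42.9%, against 6.95% of all genes).

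Tap1 and Psmb9 lie head to head on mouse chromosome 17, with starts 226 bases apart, so their promoter windows share 275 bases. The Tap1 window is printed because both genes are read outward from it. It holds neither motif, and neither does the Psmb9 window.
Tap1, chr17:34187306-34187605, plus strand: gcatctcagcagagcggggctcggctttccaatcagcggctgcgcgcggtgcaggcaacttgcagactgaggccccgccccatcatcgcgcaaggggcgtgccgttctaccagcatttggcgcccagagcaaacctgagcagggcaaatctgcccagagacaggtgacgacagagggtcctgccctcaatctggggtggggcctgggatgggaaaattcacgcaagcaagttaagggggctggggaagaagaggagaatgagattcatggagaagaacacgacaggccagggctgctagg
The Psmb8 window held a GAS match 97 bases before the start, in capitals here.
Psmb8, chr17:34198085-34198194, plus strand: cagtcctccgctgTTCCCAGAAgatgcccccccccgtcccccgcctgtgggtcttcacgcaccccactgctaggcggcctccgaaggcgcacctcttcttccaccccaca

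The transcription factors did not follow the GTPases. Irf1, the factor that interferon-γ induces, was at 11.06, 11.05 and 11.03 in CSN8ΔIEC and at 10.89, 11.11 and 11.10 in CSN8fl/fl, a difference of 0.01 with a 95% interval from −0.25 to 0.28. Stat2, which acts only on the type I and type III routes, was at 8.29, 8.56 and 8.66 in CSN8ΔIEC and at 8.70, 8.68 and 9.13 in CSN8fl/fl (−0.33 ± 0.16, adjusted p = 0.386), without overlap. Irf7, the factor that amplifies type I interferon production, was at 8.25, 8.68 and 8.39 in CSN8ΔIEC and at 8.68, 8.66 and 9.37 in CSN8fl/fl (−0.46 ± 0.21, adjusted p = 0.339). Irf9 ran from 8.01 to 8.19 in CSN8ΔIEC and from 8.11 to 8.65 in CSN8fl/fl (−0.21 ± 0.16, adjusted p = 0.563). CSN8fl/fl replicate 3 was the highest library for Stat2, Irf7 and Irf9, and the median of the 4 factors, −0.27, was −0.12 without it.

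Of the 14 antiviral effectors measured, 10 had a difference below 0 and 4 above, with a median of −0.27. At an unadjusted p under 0.05, 2 were lower (14.3%, against 8.01% of all genes) and 1 was higher (7.14%, against 6.95%), and 3 lay below CSN8fl/fl without overlap (21.4%, against 11.7% of all genes). Rtp4, a chaperone of receptors that interferon induces strongly, had a dim signal and was at 4.90, 5.48 and 5.31 in CSN8ΔIEC and at 5.71, 5.81 and 5.60 in CSN8fl/fl (−0.47 ± 0.16, adjusted p = 0.217). Zbp1, a sensor of left-handed nucleic acids that can start necroptosis, was at 7.48, 7.71 and 7.90 in CSN8ΔIEC and at 7.90, 8.11 and 8.12 in CSN8fl/fl (−0.35 ± 0.14, adjusted p = 0.295). Xaf1, an antagonist of an inhibitor of apoptosis, ran from 7.01 to 7.23 in CSN8ΔIEC and from 7.29 to 7.54 in CSN8fl/fl (−0.26 ± 0.13, adjusted p = 0.38). These 3 were the effectors whose groups lay apart with CSN8ΔIEC below, although the nearest values of Zbp1, 7.9036 in CSN8ΔIEC replicate 3 and 7.9049 in CSN8fl/fl replicate 1, all but met.

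Usp18 removes ISG15 from proteins and damps the type I receptor. It had the largest difference below 0 of any member, with 6.36, 7.12 and 7.31 in CSN8ΔIEC and 6.99, 7.58 and 8.66 in CSN8fl/fl (−0.81 ± 0.40, adjusted p = 0.38). The groups overlapped, the value of 8.66 belonged to CSN8fl/fl replicate 3, and without it the difference was −0.36. Isg15, the ubiquitin-like protein itself, had a dim signal of 4.82, 4.98 and 5.47 in CSN8ΔIEC and of 5.56, 5.66 and 5.23 in CSN8fl/fl (−0.40 ± 0.19, adjusted p = 0.371). Its mean difference was −0.71 in replicates 1 and 2 and 0.24 in replicate 3. Oasl2, of the oligoadenylate synthetase-like family, was at 9.04, 9.49 and 9.58 in CSN8ΔIEC and at 9.32, 9.66 and 10.17 in CSN8fl/fl (−0.35 ± 0.23, adjusted p = 0.508). Ifih1, the cytosolic sensor of long double-stranded RNA known as MDA5, was at 10.21, 10.45 and 10.54 in CSN8ΔIEC and at 10.39, 10.41 and 10.70 in CSN8fl/fl (−0.10 ± 0.14, adjusted p = 0.78). The groups of Oasl2 and of Ifih1 overlapped.

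The Ifit genes, whose proteins bind viral RNA or its translation machinery, went both ways. Ifit1 differed by −0.37 and Ifit3 by −0.29, with CSN8ΔIEC replicate 1 the lowest library for both, while Ifit2 differed by 0.44 with ranges of 4.44 to 5.57 in CSN8ΔIEC and 4.38 to 5.22 in CSN8fl/fl (adjusted p = 0.5, 0.528 and 0.55). Rsad2, which makes a chain-terminating nucleotide, differed by 0.06 (adjusted p = 0.923). Mx1 and Mx2, dynamin-like antiviral GTPases in other strains, are annotated as transcribed pseudogenes in the C57BL/6J reference used for names, and differed by −0.22 and 0.10 (adjusted p = 0.661 and 0.767). None of these 6 kept its groups apart, and Ifit2, Rsad2 and Mx1 had dim signals. Isg15 and Ifit1 are shown because they hold the same ISRE core as the GTPases near their start, while their differences lay below 0.
Isg15, chr4:156200819-156200928, minus strand: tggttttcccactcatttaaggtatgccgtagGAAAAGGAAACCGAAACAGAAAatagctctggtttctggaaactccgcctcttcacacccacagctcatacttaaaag
Ifit1, chr19:34640779-34640888, plus strand: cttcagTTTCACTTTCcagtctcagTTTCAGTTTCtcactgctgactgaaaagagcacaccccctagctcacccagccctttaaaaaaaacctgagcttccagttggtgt
The run in Isg15 is 3 overlapping copies, and Ifit1 has 2 separate ones, 104 and 85 bases before the start.

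Bst2, or tetherin, which ties budding viruses to the cell surface, was the effector that stood on the side of the GTPases. It was at 8.38, 8.21 and 8.04 in CSN8ΔIEC and at 7.66, 7.73 and 6.73 in CSN8fl/fl, a 1.79-fold difference without overlap (0.84 ± 0.25, adjusted p = 0.168). CSN8fl/fl replicate 3 was far below the other libraries, and without it the difference was 0.52. Bst2 is also abundant in plasma cells, and Jchain, which plasma cells make, was at 7.14, 6.56 and 7.77 in CSN8ΔIEC and at 6.13, 6.30 and 4.50 in CSN8fl/fl. Of the 5 B and plasma cell markers measured, Jchain alone had a difference above 0. The other 4 lay below 0, Mzb1 among them (−0.11). The 5 summed to 27.7 to 28.3 in CSN8ΔIEC and to 23.3 to 30.7 in CSN8fl/fl on the log2 scale, with CSN8fl/fl replicate 3 the lowest. The part of these cells in the Bst2 difference was not tested. The Bst2 promoter joins a GAS match and 2 copies of the ISRE core in a single run, 136 to 115 bases before the start.
Bst2, chr8:71537508-71537617, minus strand: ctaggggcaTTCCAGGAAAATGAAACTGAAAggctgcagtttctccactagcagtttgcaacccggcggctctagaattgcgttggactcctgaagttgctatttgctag

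The chemokine Cxcl10, which draws activated T cells, had a dim signal of 5.34, 5.61 and 5.55 in CSN8ΔIEC and of 5.27, 5.31 and 5.09 in CSN8fl/fl (0.28 ± 0.13, adjusted p = 0.344). The groups lay apart by less than the spread within either.

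**Figure D4:**
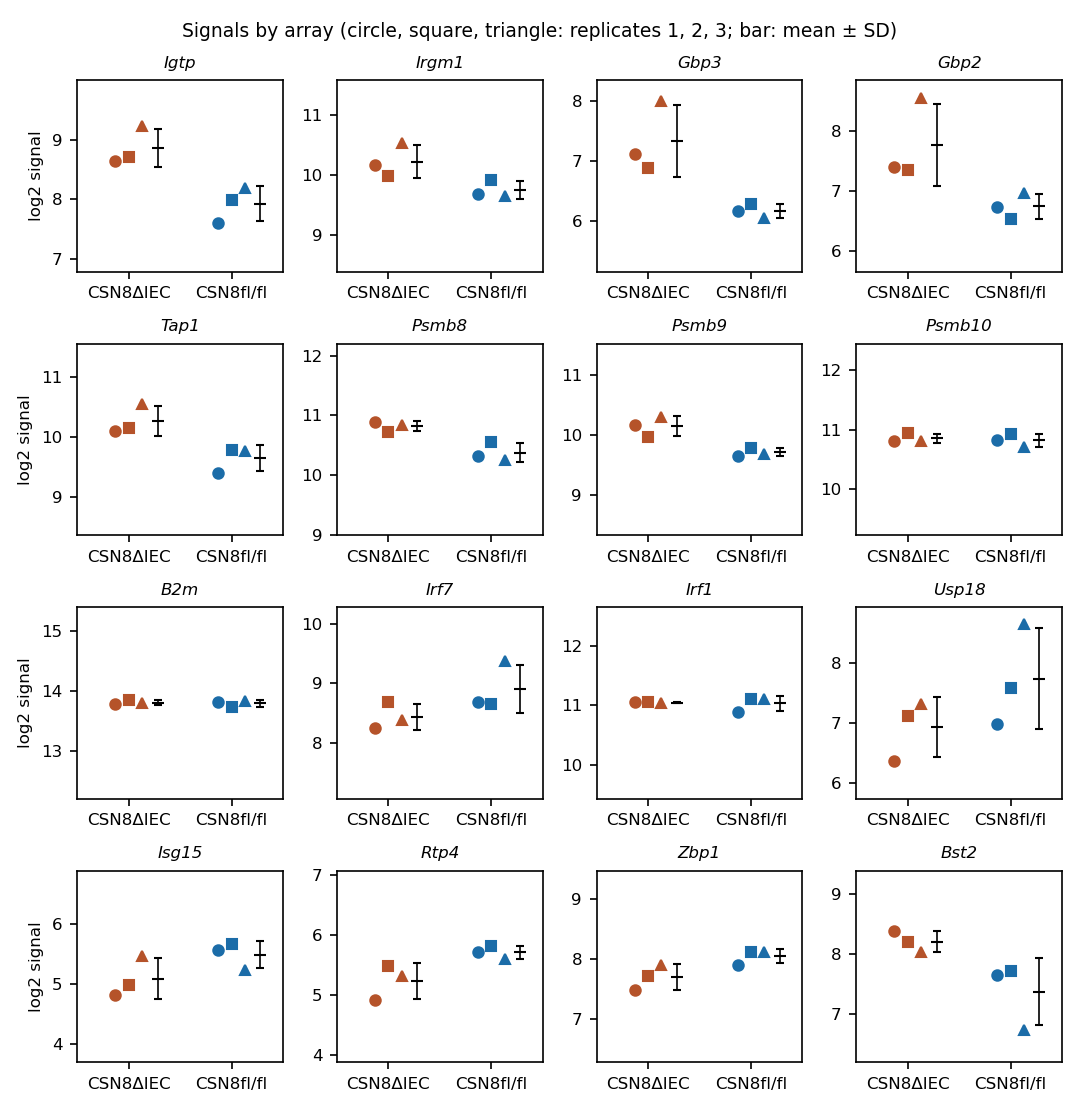
Log2 signals of 16 members in each array, with replicates 1 to 3 as circle, square and triangle and the mean ± SD beside them (n = 3 each); every panel spans the same range around its own mean. Igtp, Irgm1, Gbp2, Gbp3, Tap1, Psmb8, Psmb9 and Bst2 lie higher in CSN8ΔIEC without overlap, Psmb10, B2m and Irf1 nearly coincide, and Rtp4 and Zbp1 lie lower without overlap.

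The roles were also followed array by array, as a description with no test between roles. The median deviation of the IRG GTPases from each gene's mean over the 6 arrays was 0.17, 0.07 and 0.63 in CSN8ΔIEC and −0.41, −0.29 and −0.18 in CSN8fl/fl replicates 1 to 3. That of the GBP was 0.19, 0.06 and 0.88 in CSN8ΔIEC and −0.41, −0.44 and −0.12 in CSN8fl/fl. For both families each CSN8ΔIEC array lay above each CSN8fl/fl array. The median deviation of the antiviral effectors was −0.36, 0.01 and 0.03 in CSN8ΔIEC and 0.06, 0.07 and 0.25 in CSN8fl/fl, so that 1 library at each end carried most of the span. Within CSN8fl/fl, GTPases and effectors both had their highest median in replicate 3. CSN8ΔIEC replicate 1 was the lowest library in 9 of the 14 effectors (64.3%, against 15.6% of all genes). CSN8fl/fl replicate 3 was the highest in 8 (57.1%, against 23.8%). Factors and effectors together had CSN8fl/fl replicate 3 as the highest library in 11 of 18 (61.1%, against 23.8% of all genes). The effector median was −0.19 without CSN8ΔIEC replicate 1 and −0.15 without CSN8fl/fl replicate 3.

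**Figure D5:**
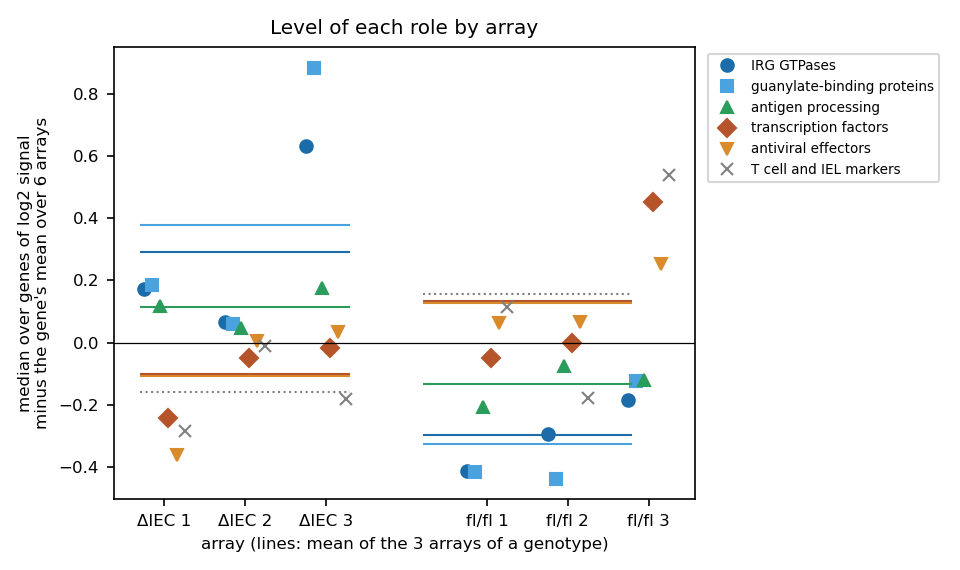
Points are medians over the genes of a role of the log2 signal minus each gene's mean, by array, and lines the mean of the 3 arrays of a genotype; grey crosses are T cell and intraepithelial lymphocyte (IEL) markers. GTPase points lie above 0 in all CSN8ΔIEC arrays and below 0 in all CSN8fl/fl arrays, and factors, effectors and lymphocyte markers share their highest point in CSN8fl/fl replicate 3.

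Crypt preparations keep some lymphocytes, and in bulk RNA fewer cells of a type and less RNA per cell cannot be told apart. Of the 14 T cell and intraepithelial lymphocyte markers measured, 12 had a difference below 0 and 0 passed the threshold (median −0.30). They summed to 99.6 to 104.4 in CSN8ΔIEC and to 102.1 to 111.9 in CSN8fl/fl on the log2 scale. CSN8fl/fl replicate 3 was highest in 11 of them (78.6%, against 23.8% of all genes). Ptprc, the pan-leukocyte CD45, was at 7.93, 8.47 and 8.35 in CSN8ΔIEC and at 9.04, 8.95 and 9.91 in CSN8fl/fl (−1.05 ± 0.26, adjusted p = 0.106). By median difference the lymphocyte markers went with the factors and effectors and against the GTPases, but not in every array. Their median deviation in replicate 2 was −0.18 in CSN8fl/fl and −0.01 in CSN8ΔIEC. The part of lymphocytes in the differences of these roles was not tested. No marker can be called absent, since the deposited table has no detection call. Of the 10 villus enterocyte markers, 7 had a difference below 0, among them the brush border enzyme Alpi (−1.08 ± 0.23, adjusted p = 0.0681). In CSN8fl/fl replicate 3, 7 of the 10 were highest (70%, against 23.8% of all genes). Of 8 myeloid markers 0 passed, and of 10 stromal, muscle and endothelial markers Acta2, of smooth muscle, rose with a dim signal (0.66 ± 0.12, adjusted p = 0.0366). Des, a dim muscle marker of the same list, lay lower in CSN8ΔIEC without overlap (−0.49 ± 0.12, adjusted p = 0.113).

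The genotype difference was also compared between replicates 1 and 2 and replicate 3. None of the 34 passed for this interaction in limma (lowest adjusted p = 0.421), and 0 of all genes did. At an unadjusted p under 0.05 there were 6 members, Gbp3, Gbp2, Isg15, Bst2, Mx1 and Irf7, against 10.1% of all genes. Gbp3 differed by 0.77 in replicates 1 and 2 and by 1.96 in replicate 3. Gbp2 differed by 0.74 in replicates 1 and 2 and by 1.59 in replicate 3. Each genotype had 1 library in replicate 3, so the spread came from replicates 1 and 2 alone.

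Upstream of these genes, the interferon receptors all had lower signals in CSN8ΔIEC crypts, though none passed. The 6 differences ran from −0.64 to −0.15. Ifngr2, the signalling chain of the interferon-γ receptor, was at 10.68, 10.68 and 10.56 in CSN8ΔIEC and at 11.08, 11.33 and 11.43 in CSN8fl/fl (−0.64 ± 0.13, adjusted p = 0.0604). Its groups lay well apart. Il10rb, the chain that interferon-λ shares with interleukin-10 relatives, ran from 10.45 to 10.58 in CSN8ΔIEC and from 10.89 to 11.41 in CSN8fl/fl (−0.55 ± 0.16, adjusted p = 0.154). Ifnar1, of the type I receptor, differed by −0.21 (adjusted p = 0.492). CSN8fl/fl replicate 3 was the highest library for all 6 receptors (100%, against 23.8% of all genes). Ifnlr1, of the interferon-λ receptor, differed by −0.15 with that library and by 0.07 without it. Among 13 interferon ligands and inducers, Il18, which drives lymphocytes to make interferon-γ, differed by −0.67, Ifne by −0.35 and Ifnl3 by −0.26 (adjusted p = 0.188, 0.282 and 0.379). The difference of Il18 was −0.35 in replicates 1 and 2 and −1.32 in replicate 3, and Ifne had a dim signal. Ifng itself was dim, at 5.14 to 5.40 in CSN8ΔIEC and 4.98 to 5.39 in CSN8fl/fl.

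Signalling and sensing genes showed no call either. Of 13 kinases, STATs, IRFs and inhibitors, 0 passed, 1 was higher and 1 lower at an unadjusted p under 0.05: the corepressor Irf2bp2 (0.42, adjusted p = 0.158) and the receptor kinase Jak2 (−0.45, adjusted p = 0.308). Each is 7.69% of the list, near the 6.95% higher and 8.01% lower of all genes. The difference of Jak2 was −0.16 in replicates 1 and 2 and −1.03 in replicate 3. Jak1 differed by 0.26 (adjusted p = 0.36). Of 12 genes of nucleic acid sensing 0 passed. Tlr3, the endosomal receptor of double-stranded RNA, and its adaptor Ticam1 differed by −0.43 and −0.41, and Ddx58, which encodes RIG-I, by −0.51 (adjusted p = 0.211, 0.25 and 0.236). The groups of Ddx58 overlapped. Cgas and Sting1, the cytosolic DNA sensor and its adaptor, lay higher in CSN8ΔIEC without overlap (0.60 and 0.55, adjusted p = 0.275 and 0.262), with CSN8fl/fl replicate 3 the lowest library for both. In all, 2 of the 12 were higher and 3 lower at an unadjusted p under 0.05 (16.7% and 25.0%, against 6.95% and 8.01% of all genes). The class I heavy chains and loading genes had 0 of 17 at an unadjusted p under 0.05, with H2-K1 at 12.24 to 12.37 in CSN8ΔIEC and 12.12 to 12.35 in CSN8fl/fl. Their smallest p-values belonged to H2-T23 (−0.27), H2-Q1 (−0.43) and H2-Q4 (0.19). The 7 constitutive proteasome counterparts and activators all had differences above 0, with a median of 0.17 and 0 past the threshold. The largest were those of Psme3 (0.35), Psme2 (0.25) and Psmb6, the constitutive counterpart of Psmb9 (0.20).

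Among 41 other interferon-induced genes measured, 0 rose and 2 fell. Ifi27l2a, a small mitochondrial protein gene strongly induced by type I interferon, fell to 6.05, 6.05 and 5.91 in CSN8ΔIEC, against 6.74, 6.83 and 7.23 in CSN8fl/fl (−0.93 ± 0.15, 1.91-fold, adjusted p = 0.0261). Ifi27, its relative, had a dim signal and fell to 5.51, 5.54 and 5.39 in CSN8ΔIEC, against 6.41, 6.26 and 6.996 in CSN8fl/fl (−1.08 ± 0.19, adjusted p = 0.0353). All 3 CSN8ΔIEC values of both lay below every CSN8fl/fl value, and whether probes read both of these related genes was not tested. Ifi27l2a did not pass without any 1 of the CSN8ΔIEC replicates or CSN8fl/fl replicate 2 (adjusted p up to 0.1155), and Ifi27 did not pass without any 1 of the CSN8ΔIEC replicates or CSN8fl/fl replicate 1 (adjusted p up to 0.148). Cd274, which encodes the T cell inhibitor PD-L1 and is an interferon-γ target, was at 7.38, 7.67 and 7.78 in CSN8ΔIEC and at 7.12, 6.59 and 6.62 in CSN8fl/fl (0.83 ± 0.18, adjusted p = 0.0704). Cxcl9, a chemokine that interferon-γ induces, was chosen after its values were seen. It was at 6.48, 6.70 and 7.56 in CSN8ΔIEC and at 5.81, 5.59 and 6.09 in CSN8fl/fl (1.09 ± 0.26, adjusted p = 0.104), again without overlap and highest in CSN8ΔIEC replicate 3. Sp100, Cmpk2 and Herc6, also chosen after their values were seen, lay lower in CSN8ΔIEC without overlap (−0.98, −0.62 and −0.68, adjusted p = 0.136, 0.137 and 0.138). Ifit1bl1 was higher in CSN8ΔIEC, unlike Ifit1 and Ifit3, and its groups overlapped (0.95 ± 0.35, adjusted p = 0.254). The list as a whole had a median of −0.05, with 4 higher (9.76%, against 6.95% of all genes) and 7 lower (17.1%, against 8.01%) at an unadjusted p under 0.05.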

How the data were processed

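The deposited values are log2 signals per probe set. The submitters' processing notes name RMA and Partek 6.6, while settings and genome build were not given in the sources used here. Of 22206 probe sets, 19572 had 1 gene symbol in the platform annotation, 0 had several and 2634 are unnamed here. For 55 genes with several probe sets, the one with the highest mean was used (none was a member), leaving 19505 genes. Genotypes were compared as CSN8ΔIEC minus CSN8fl/fl by lmFit and eBayes of limma 3.58.1 (R 4.3.3). Benjamini-Hochberg adjustment ran over the 19505 genes, with a threshold of 0.05. Tests are two-sided, values are means ± SD (n = 3 each), differences are log2 with SE, and folds are their antilogs. "Dim" marks a mean below 6.08, the 40th percentile of genes. Arrays have no read depth, and their number limits the precision. The fit was tested on simulated data.

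The members and lists were chosen with earlier results of these data known. Values in every array were to be given for members past the threshold in the fit or an alternative, and for the 2 of each role with the smallest p or the highest mean; for other lists, genes past the threshold and the 3 with the smallest p. Marker lists were to be given as counts and ranges with their 2 most abundant genes, most of which are not named here. Iigp1, Psmb9, Zbp1, Usp18, Isg15, Xaf1, the Ifit genes, Ifit1bl1, Ifng, H2-K1, Ptprc, Jchain, Mzb1, Des, Alpi, Gbp4, Gbp8, Tgtp2, Cgas, Sting1 and Ifnlr1 were named beside these rules. So were Cxcl9, Sp100, Cmpk2, Herc6, Lgr5, Ascl2, Mki67, Mmp7 and Acta2.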

Additional observations from a re-analysis of the deposited data

How the results depend on the processing

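Members past the threshold numbered 0 with the values as reported, 1 (Igtp) with a trend and robust prior, 1 with array weights, 1 with the replicate number as a block and 2 (Igtp and Gbp2) with labelled sex and age as a term. The count was 0 without any 1 library, with dim genes left out, with median centring, with quantile normalisation applied again and with probe sets averaged. Of 469 single-gene differences under these alternatives, 464 kept their side of the threshold and 5 passed; 10 changed sign, none of them past the threshold. The members' median lay between −0.0082 (without CSN8ΔIEC replicate 2) and 0.068. Members higher at an unadjusted p under 0.05 numbered 7 to 12 with a library left out, and those lower 0 to 5, against 1 with dim genes left out, 6 with the replicate block and 5 with labelled sex and age as a term. Over all genes, 210 passed, and 41 to 228 with a library left out. Deviations of same-numbered samples correlated at 0.12, −0.02 and 0.04, and not every sample correlated best with its own number. Same-numbered samples do share a labelled age and sex, a factor that the main fit leaves out and these correlations do not test. With the replicate block, Igtp had an adjusted p of 0.0304, and Ifi27 and Ifi27l2a did not pass (0.0556 and 0.0539). The term for labelled sex and age sets replicates 1 and 2 against replicate 3, and Y-linked signals went against the labelled sex in all 6 libraries. The interaction gave 0 members under each alternative run, and it was not run with a library left out, averaged probe sets or the replicate block. Filtering dim genes removed 7 of the 34, Cxcl10 among them, and counts at an unadjusted p, the medians of roles and the alternatives for Ifi27, Ifi27l2a and Ifnlr1 were added after seeing the data. Precision is limited by 3 arrays a group.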
